A study of Mus musculus with 12 samples.

Results

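Cells sorted as myeloid, from mammary glands of mice on a high-fat diet, were compared by CD34. Those that carried no CD34 on their surface were set against those that carried it. The comparison was chosen by the sample titles and used 3 CD34- and 3 CD34+ samples, 6 of the 12 samples of the series, in pairs of the same replicate number. All mice were female FVB/N mice, and those of the 6 samples were put at 3 weeks of age on a high-fat diet (58Y1), which lasted 16 weeks, with 3 mice per diet. Collagenase (1 hour) and then trypsin freed the cells from the gland, and live ones positive for both CD45 and CD11b were sorted by CD34. The other 6 samples came from the same strain, sex, age and sort after a low-fat diet (2920X), and enter only the estimate of spread and the comparison between diets. RNA was amplified with a low-input kit and counted on the NanoString nCounter Fibrosis V2 panel, in which barcoded probes count chosen RNAs. Of 760 panel genes, 594 were tested because 3 or more of the 12 samples reached 20 on the linear scale, and 166 were not.

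CD45 marks white blood cells, and CD11b is an integrin of monocytes, macrophages, neutrophils and also natural killer (NK) cells. CD34 is a sialomucin of blood progenitors, which is found as well on blood vessel cells and some connective tissue cells. The design text names the sorted populations as monocytes or macrophages and as progenitors of the myeloid line, and Cd34 was the only progenitor gene tested beside cell cycle genes. Macrophages of fat-rich tissue take up lipid and dying cells, and release chemokines that call in further white cells.

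The promoters of genes at both ends of the comparison are shown first, as the 250 bases before the RefSeq start on GRCm38.p6, read 5′ to 3′ on the gene's strand. Gzma (chr13:113100982-113101231, minus strand), a granzyme of killer cells, had the largest difference in favour of CD34- cells. Xcl1 (chr1:164935523-164935772, minus strand) and Ifng (chr10:118440796-118441045, plus strand) encode a chemokine and the cytokine interferon gamma of the same cells. Cxcl1 (chr5:90890995-90891244, plus strand) and Cxcl2 (chr5:90903649-90903898, plus strand) encode chemokines that attract neutrophils, and both were lower in CD34- cells. Capitals mark a T-box half-site (GGTGTGA) in Xcl1, a TATA box (TATAAA) in Ifng, an NF-kB site in Cxcl1, whose capitals are the letters searched, and the same NF-kB letters, after a GC box (GGGCGG), in Cxcl2.
Gzma: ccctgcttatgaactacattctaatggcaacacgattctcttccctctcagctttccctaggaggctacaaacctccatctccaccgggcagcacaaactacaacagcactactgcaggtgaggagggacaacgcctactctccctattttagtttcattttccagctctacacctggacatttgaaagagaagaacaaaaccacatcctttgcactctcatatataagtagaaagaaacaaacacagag
Xcl1: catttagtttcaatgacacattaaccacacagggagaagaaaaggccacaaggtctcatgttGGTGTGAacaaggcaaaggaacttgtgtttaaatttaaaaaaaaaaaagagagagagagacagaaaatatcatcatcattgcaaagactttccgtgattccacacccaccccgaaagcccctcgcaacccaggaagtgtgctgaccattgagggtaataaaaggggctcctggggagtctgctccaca
Ifng: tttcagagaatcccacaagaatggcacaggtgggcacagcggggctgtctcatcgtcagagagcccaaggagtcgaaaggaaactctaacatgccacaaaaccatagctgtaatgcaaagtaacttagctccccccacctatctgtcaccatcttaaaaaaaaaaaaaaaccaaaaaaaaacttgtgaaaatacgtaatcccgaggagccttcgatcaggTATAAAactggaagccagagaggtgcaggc
Cxcl1: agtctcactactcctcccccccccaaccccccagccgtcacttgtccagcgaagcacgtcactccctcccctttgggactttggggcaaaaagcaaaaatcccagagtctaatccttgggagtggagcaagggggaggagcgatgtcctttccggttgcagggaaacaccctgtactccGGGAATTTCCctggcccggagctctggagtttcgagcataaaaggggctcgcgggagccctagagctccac
Cxcl2: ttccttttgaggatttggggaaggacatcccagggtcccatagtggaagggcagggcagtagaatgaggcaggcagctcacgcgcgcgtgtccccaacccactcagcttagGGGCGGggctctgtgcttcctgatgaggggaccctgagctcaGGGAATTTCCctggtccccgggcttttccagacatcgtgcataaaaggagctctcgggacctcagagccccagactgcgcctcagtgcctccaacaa

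Each motif was searched on both strands as these exact letters, and none of them overlaps another in the windows shown. The windows searched were those of the RefSeq table with a chromosome left out. The NF-kB letters were in 28 of these 32851 promoter windows (0.0852%), among them those of Cxcl1 and Cxcl2. The T-box letters were in 3.33% of all windows, the TATA letters in 12.4% and the GC letters in 32.7%. Of the 15 genes with the largest difference in favour of CD34- cells, 10 had a searched window. Nkg7 and Xcl1 held the T-box letters, Ifng the TATA letters and Cd3g the GC letters. Of the 15 genes with the largest difference the other way, 9 had a searched window. Cxcl1 alone held the NF-kB letters, in 1 of 9 windows, as Cxcl2 is not among these 15 genes. C3ar1, Col3a1 and Mmp3 held the TATA letters, and C3ar1, Col1a2, Col5a1 and Pltp the GC letters. A match describes the letters only.

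Recovered total counts were 385629, 223701 and 535463 in CD34- samples 1, 2 and 3, against 400322, 532744 and 780070 in CD34+ samples 1, 2 and 3. Cd34 itself, the gene of the sorted protein, had log2 values of 5.40, 5.14 and 5.27 in CD34- cells, against 5.29, 6.44 and 5.11 in CD34+ cells. It was thus high only in CD34+ sample 2 and did not pass the test (-0.34 ± 0.47, adjusted p = 0.635), and in pairs 1 and 3 it was not higher in CD34+ cells. Samples are named by their sort label throughout. CD34+ sample 2 also stood apart in collagens and other matrix genes, and values without pair 2 are therefore given beside those results. The CD11b gene Itgam was not analysed here. Ptprc, the gene of CD45, had 11.83, 12.02 and 11.79 in CD34- cells, against 11.09, 11.09 and 10.86 in CD34+ cells (0.87 ± 0.15, adjusted p = 0.000432).

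Differences below are CD34- minus CD34+ on the log2 scale, over 3 pairs, from 1 limma fit with the mouse as a block. The standard error beside each is that of limma, which draws on the pairs of both diets and on other genes of similar level. It is therefore not the spread of the 3 high-fat pairs, whose values are printed for many genes. P-values are adjusted over all 594 genes by Benjamini-Hochberg with a threshold of 0.05. In CD34- cells 98 genes were higher (16.5% of those tested) and 51 were lower (8.59%), 25.1% together. The calls numbered 97 without pair 3 and 53 without the mouse as a block. Of the 149 called genes, 147 had the same direction in 3 of 3 pairs; Col1a1 in pair 3 and Cxcl10 in pair 2 were the exceptions. The 3 samples of each group did not overlap for 116 called genes, against 189 of all 594 (31.8%), 23.4% of all as higher and 8.42% as lower. Over all tested genes, 37.0% were higher and 17.2% lower in 3 of 3 pairs. The change was at least 2-fold for 62 of the higher and 30 of the lower genes, and at least 4-fold for 28 and 7. The median difference of all tested genes was 0.215, and centring each sample on its own median lowered every difference by about 0.28. That centring gave 61 higher and 80 lower genes and changed the sign of no called gene, so the split between directions depends on the scale. Centring moves all genes by the same amount and so could not change their order.

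The authors' deposited table of this comparison lists 135 genes in 2 clusters of their own numbering, 32 in cluster 1 and 103 in cluster 2. All 32 genes of cluster 1 were below 0 here and all 101 tested genes of cluster 2 were above 0. The authors' deposited table shares 103 genes with those called here, 76.3% of its genes and 69.1% of the called ones. Outside the authors' deposited table, 20 genes were called higher and 26 lower. That table was made from the same samples and is not independent of the values here.

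**Figure D1:**
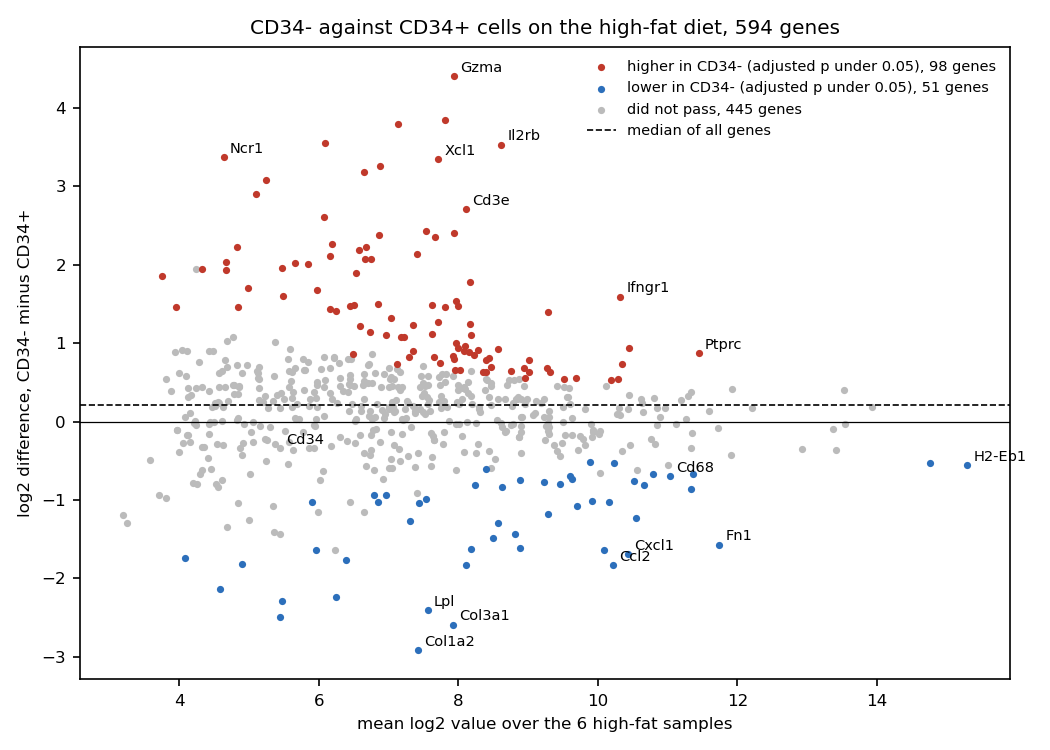
Log2 difference, CD34- minus CD34+, of each of 594 genes (y axis) against its mean log2 value over the 6 high-fat samples (x axis), with called genes coloured. Differences of Gzma (4.41) and Col1a2 (-2.92) mark the ends, and the dashed line is the median of 0.215.

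Genes of killer cell granules had the largest differences and were higher in CD34- cells. All 4 tested genes of the granule list passed, beside 16.5% higher among all genes, with a median difference of 3.82 against 0.215 over all genes. Gzma had log2 values of 10.56, 10.08 and 9.77 in CD34- cells, against 7.33, 5.70 and 4.15 in CD34+ cells. The groups were separated by over 2 log2 units, and the gap was widest in pair 3 (4.41 ± 0.44, adjusted p = 2.94e-06). Gzmb, a second granzyme, had 10.01, 9.87 and 9.34 in CD34- cells, against 6.55, 7.11 and 4.02 in CD34+ cells (3.84 ± 0.35, adjusted p = 1.53e-06). Nkg7, a granule membrane protein, differed by 3.79 ± 0.37, and Prf1, the pore-forming perforin, by 3.08 ± 0.46. Ctsw, a cathepsin of killer lymphocytes that is on none of the lists, had 8.27, 8.56 and 7.89 in CD34- cells, against 5.36, 5.61 and 4.19 in CD34+ cells (3.19 ± 0.29, adjusted p = 1.53e-06).

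Signals and regulators of NK and type 1 cells went the same way. In that list 5 of 6 tested genes were higher and 0 lower, beside 16.5% and 8.59% of all genes, with a median of 2.67. Ifng had log2 values of 8.97, 8.73 and 7.82 in CD34- cells, against 5.98, 5.81 and 3.97 in CD34+ cells (3.26 ± 0.36, adjusted p = 8.11e-06). Xcl1, a chemokine for cross-presenting dendritic cells, had 10.05, 9.41 and 8.69 in CD34- cells, against 7.18, 6.17 and 4.75 in CD34+ cells (3.35 ± 0.25, adjusted p = 4.01e-07). For both genes the lowest CD34- sample was above the highest CD34+ sample, and pair 3 held the lowest value of each population. Eomes, a T-box transcription factor of NK and memory T cells, differed by 3.55 ± 0.41. The receptors Il12rb2 (2.08 ± 0.34) and Il18r1 (2.01 ± 0.34), for cytokines that induce interferon gamma, were higher as well. Tnfsf14 was the member that did not pass (-0.41 ± 0.32).

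Markers of T and NK cells formed the largest group. Of 36 listed genes, 20 were on the panel and 19 were tested. All 19 were higher in CD34- cells, beside 16.5% of all genes, with a median of 2.40. The 19 include the granule genes above, Eomes and the Cd3 genes, so these lists share calls and are not separate results. Cd3e, a chain of the T cell receptor complex, had log2 values of 9.24, 10.37 and 8.76 in CD34- cells, against 7.04, 7.68 and 5.54 in CD34+ cells (2.70 ± 0.22, adjusted p = 9.6e-07). Its partner chains Cd3g (2.43 ± 0.21) and Cd3d (2.35 ± 0.20) differed by similar amounts, whereas the signalling enzyme Plcg1 did not pass (-0.10 ± 0.58). Ncr1, an activating receptor of NK cells, had 6.45, 6.51 and 6.01 in CD34- cells, against 4.09, 2.74 and 2.02 in CD34+ cells (3.37 ± 0.58, adjusted p = 0.000432). Il2rb, a receptor chain for interleukin signals of NK and T cells, had 10.54, 10.48 and 10.12 in CD34- cells, against 8.16, 7.26 and 5.15 in CD34+ cells (3.53 ± 0.34, adjusted p = 2.26e-06). Icos, a costimulatory receptor of T cells, differed by 2.40 ± 0.24.

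Within the same list the differences were uneven. Foxp3, the regulator of regulatory T cells (2.26 ± 0.36), Gata3 (2.07 ± 0.32) and Cd4 (1.41 ± 0.27) were higher in CD34- cells. The smallest differences were those of Klrk1 (0.80 ± 0.23, adjusted p = 0.021), Cd8a (0.82 ± 0.24, adjusted p = 0.0195) and Klrd1 (0.93 ± 0.26, adjusted p = 0.014), and after centring on the sample median none of these passed. The summed linear value of all 20 panel markers ran from 5700 to 10940 in CD34- samples, against 768 to 2206 in CD34+ samples, and no marker was at 1 count in all samples. Every sample thus held T and NK marker RNA although the gate was set on CD11b. In bulk samples fewer cells of a type and less RNA per cell cannot be told apart. The part of such cells in the results on other genes was not tested. Klrk1 (0.71, adjusted p = 0.105) did not pass without pair 1, nor did Klrk1 (0.78, adjusted p = 0.0648) without pair 2, nor did Cd8a (0.47, adjusted p = 0.226) without pair 3.

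**Figure D2:**
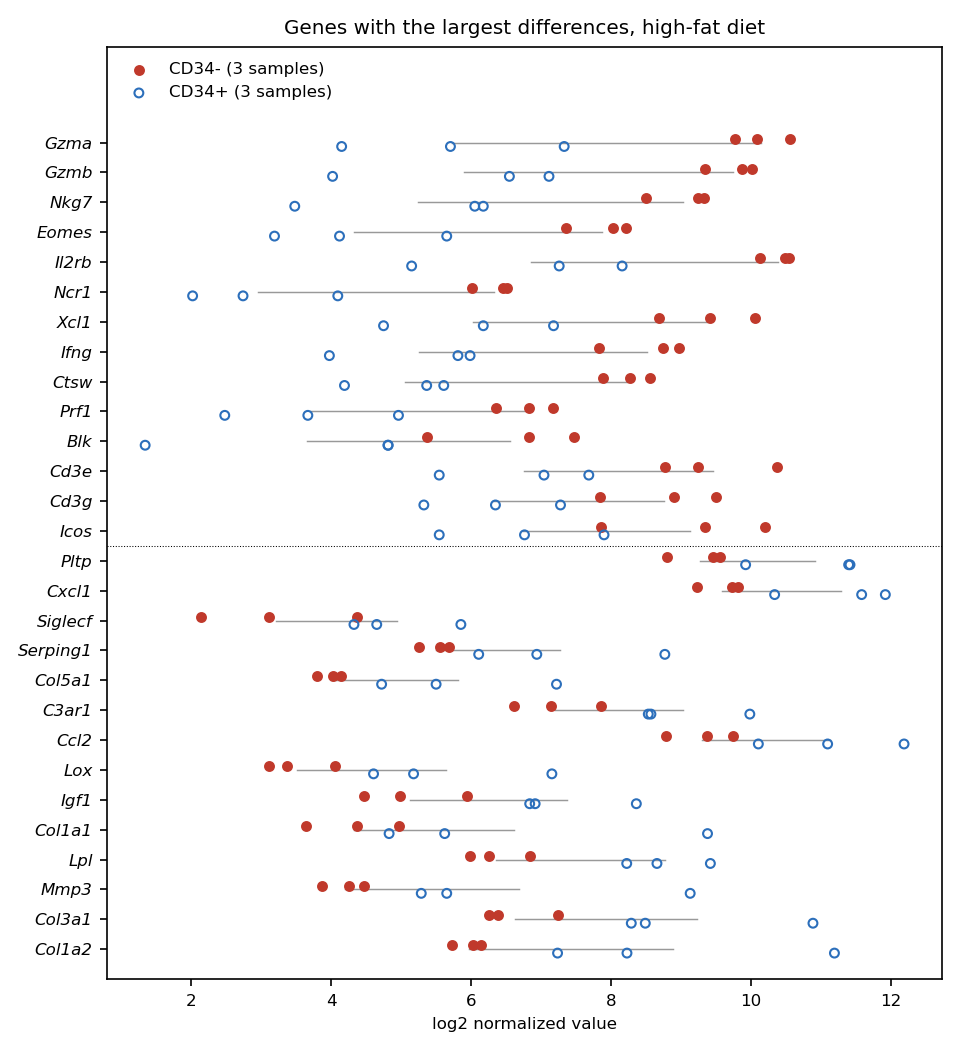
Log2 values (x axis) of genes with the largest difference in each direction (rows), with 3 CD34- samples as filled points and 3 CD34+ samples as open points. Gzma stands at 9.77 to 10.56 in CD34- cells and 4.15 to 7.33 in CD34+ cells, and Col1a2 at 5.73 to 6.14 and 7.23 to 11.19; grey lines join group means.

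B cell markers were higher too, at 3 of 4 tested genes, beside 16.5% of all genes, with a median of 2.36. The surface protein gene Ms4a1 (CD20) had log2 values of 7.16, 8.62 and 5.88 in CD34- cells, against 5.01, 6.35 and 3.97 in CD34+ cells (2.11 ± 0.31, adjusted p = 0.000152). Its groups overlapped, but each pair was higher in CD34- cells, and without the mouse as a block it did not pass (adjusted p = 0.0587). Blk, a kinase of B cells, differed by 2.90 ± 0.41, while the plasma cell receptor Tnfrsf17 did not pass (0.43 ± 0.50). Sample 2 was the highest CD34- sample for each of these 3 genes. The summed markers ran from 184.6 to 1010 in CD34- samples and 43.06 to 166.9 in CD34+ samples, and their part in the results on other genes was not tested.

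Neutrophil genes were higher in CD34- cells at 4 of 4 tested members, beside 16.5% of all genes, with a median of 1.72. Without the mouse as a block 2 of the 4 passed. Cxcr1, the other panel member, was too low to be tested. It had log2 values of 3.85, 3.73 and 3.93 in CD34- cells, against 4.33, 3.59 and 3.88 in CD34+ cells. Csf3r, the receptor of granulocyte colony-stimulating factor, had log2 values of 7.34, 6.83 and 7.57 in CD34- cells, against 6.42, 5.55 and 5.34 in CD34+ cells (1.48 ± 0.31, adjusted p = 0.0025). Fpr1, a receptor for bacterial peptides, differed by 1.96 ± 0.43 and Mmp8, the neutrophil collagenase, by 2.23 ± 0.50. Mmp9, a gelatinase, was low in every sample, at 4.34, 5.20 and 4.50 in CD34- cells and 3.18, 3.00 and 3.48 in CD34+ cells (1.46 ± 0.49, adjusted p = 0.0391), and did not pass after centring. The sum of the 5 panel markers ran from 302.2 to 369.1 in CD34- samples, against 85.11 to 177.7 in CD34+ samples, and its part in other results was not tested. Hdc, which makes histamine in mast cells and basophils, had 7.99, 7.41 and 7.96 in CD34- cells, against 6.01, 5.68 and 4.97 in CD34+ cells (2.23 ± 0.36, adjusted p = 0.000311). The mast cell protease genes Cpa3 (-0.46 ± 0.79) and Tpsb2 (-0.18 ± 0.85) did not pass. Mmp9 (1.61, adjusted p = 0.0835) did not pass without pair 1, nor did Mmp9 (1.09, adjusted p = 0.285) without pair 2, nor did Mmp8 (1.57, adjusted p = 0.0732), Fpr1 (1.67, adjusted p = 0.0513), Csf3r (1.10, adjusted p = 0.0502) and Mmp9 (1.68, adjusted p = 0.091) without pair 3.

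Several receptors on immune cells were higher in CD34- cells. Ifngr1, a chain of the interferon gamma receptor, had log2 values of 11.07, 10.98 and 11.29 in CD34- cells, against 9.41, 10.03 and 9.12 in CD34+ cells (1.59 ± 0.21, adjusted p = 4.63e-05). It was among the more abundant genes called and its groups did not overlap. Among chemokine receptors 4 of 7 were higher and 1 lower, beside 16.5% and 8.59% of all genes. Cxcr6 (2.37 ± 0.33), Ccr4 (1.94 ± 0.43), Cxcr3 (1.59 ± 0.32) and Cxcr4 (0.94 ± 0.18) were higher. Ccr7, which guides dendritic and T cells to lymph nodes, had 10.26, 10.27 and 10.27 in CD34- cells, against 11.35, 10.91 and 10.96 in CD34+ cells (-0.80 ± 0.17, adjusted p = 0.0031). Ccr2, the receptor of inflammatory monocytes, did not pass (-0.23 ± 0.26).

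Of 12 cytokine receptor and Jak-Stat genes, 5 were higher and 0 lower, beside 16.5% and 8.59% of all genes, with a median of 0.51. Besides Il2rb and Il18r1 these were Il21r (1.54 ± 0.25), Il2ra (1.46 ± 0.35) and Stat3 (0.55 ± 0.17). Il21r, which binds interleukin 21 of helper T cells, had log2 values of 8.70, 9.26 and 8.23 in CD34- cells, against 7.28, 7.57 and 6.72 in CD34+ cells. Jak1 (0.47 ± 0.21) and Jak2 (0.08 ± 0.17) did not pass. Interferon response genes were mixed, with 4 of 15 higher and 1 lower, beside 16.5% and 8.59% of all genes. Their median of 0.24 was close to that of all genes. The higher genes included Isg20 (1.22 ± 0.27), Bst2 (0.55 ± 0.18) and Ifngr1, and Cxcl10 was lower (-0.73 ± 0.24). Isg15 did not pass (-0.65 ± 0.33), at 10.04, 9.25 and 9.83 in CD34- cells and 11.16, 8.48 and 11.44 in CD34+ cells, with pair 2 opposite in sign to pairs 1 and 3. After centring, Stat3 and Bst2 no longer passed. Bst2 (0.60, adjusted p = 0.0869) and Cxcl10 (-0.65, adjusted p = 0.154) did not pass without pair 1, nor did Bst2 (0.64, adjusted p = 0.0733) and Stat3 (0.47, adjusted p = 0.173) without pair 2, nor did Bst2 (0.42, adjusted p = 0.226), Stat3 (0.51, adjusted p = 0.113) and Cxcl10 (-0.44, adjusted p = 0.331) without pair 3.

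In the TGF-beta pathway, which drives scar tissue and restrains immune cells, 3 of 10 tested genes were higher in CD34- cells and 0 lower, beside 16.5% higher among all genes. The list's median of 0.21 was close to the 0.215 of all genes, and 2 of the 10 passed with the block as a random effect. Smad3, a transcription factor of the pathway, had log2 values of 8.27, 8.23 and 8.52 in CD34- cells, against 7.07, 7.15 and 6.98 in CD34+ cells (1.27 ± 0.26, adjusted p = 0.00165). Its values were tight within each group and did not overlap. Tgfbr2, the receptor chain that binds the ligand, differed by 1.25 ± 0.21 (adjusted p = 0.000387), and the inhibitor Ski by 0.64 ± 0.22 (adjusted p = 0.0453), which did not hold after centring. The ligand Tgfb1 (0.33 ± 0.18) and the signal partners Tgfbr1 (0.01 ± 0.29), Smad2 (0.25 ± 0.23) and Smad4 (-0.03 ± 0.21) did not pass. Of 17 genes of MAPK, PI3K and RAS signalling 2 were higher, a smaller share than the 16.5% of all genes, namely the kinase gene Braf (0.96 ± 0.24) and the GTPase gene Rac2 of white blood cells (1.07 ± 0.28). Rac2 did not pass without pair 2 (0.82, adjusted p = 0.0891). Ski (0.70, adjusted p = 0.0907) did not pass without pair 1, nor did Ski (0.69, adjusted p = 0.101) without pair 2, nor did Braf (0.80, adjusted p = 0.0614) and Ski (0.52, adjusted p = 0.224) without pair 3.

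Collagens and fibroblast markers were at the other end, lower in CD34- cells. Of 7 tested collagen genes 4 were lower and 0 higher, with a median of -1.82, and of 8 fibroblast markers 5 were lower and 0 higher, with a median of -1.73. Among all genes 8.59% were lower and 16.5% higher. The 4 lower collagens are also among the 5 lower fibroblast markers. Col1a2, a chain of type I collagen, had log2 values of 5.73, 6.14 and 6.02 in CD34- cells, against 8.23, 11.19 and 7.23 in CD34+ cells (-2.92 ± 0.51, adjusted p = 0.000506). Col3a1, of type III collagen, had 6.39, 6.26 and 7.24 in CD34- cells, against 8.29, 10.88 and 8.49 in CD34+ cells (-2.59 ± 0.46, adjusted p = 0.000531). The groups of both genes did not overlap, and CD34+ sample 2 was far above the other CD34+ samples. Without pair 2 the differences were -1.85 for Col1a2 (adjusted p = 0.00122) and -1.57 for Col3a1 (adjusted p = 0.00234).

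Other matrix genes passed only with pair 2 included. Col1a1 had log2 values of 3.64, 4.37 and 4.96 in CD34- cells, against 5.62, 9.38 and 4.83 in CD34+ cells (-2.28 ± 0.66, adjusted p = 0.0192), and -0.92 without pair 2 (adjusted p = 0.344). The groups overlapped, since CD34- sample 3 lay above CD34+ sample 3. Likewise Lox, a collagen crosslinking enzyme, gave -2.13 ± 0.65 with all pairs and -1.31 without pair 2 (adjusted p = 0.29), and Col5a1 gave -1.82 ± 0.56 and -1.19 (adjusted p = 0.318). Without pair 2, 2 of 7 collagens and 3 of 8 fibroblast markers passed. The sum of the 10 panel fibroblast markers ran from 2002 to 2851 in CD34- samples, against 6315 to 11720 in CD34+ samples, and its part in other results was not tested. Fn1, described below, is among these markers and was the largest term of the sum in every sample. The sum is therefore not separate evidence from the collagens and other markers. Col6a3 (-1.35 ± 0.59), Postn (-1.63 ± 0.63) and Loxl1 (-1.25 ± 0.58) did not pass. Col5a1 (-2.0, adjusted p = 0.0784) and Lox (-2.17, adjusted p = 0.0844) did not pass without pair 1.

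Fn1, which encodes fibronectin, behaved differently from the collagens. It had log2 values of 10.78, 10.82 and 11.26 in CD34- cells, against 12.42, 12.45 and 12.70 in CD34+ cells (-1.57 ± 0.20, adjusted p = 3.31e-05). CD34+ sample 2 was between the other CD34+ samples, and without pair 2 the difference was -1.54 (adjusted p = 7.7e-06). Basement membrane genes, such as the laminin chain gene Lamc1 (-0.01 ± 0.50) and Col4a1 (-1.08 ± 0.42), gave 0 of 6 calls, beside 25.1% of all genes. After centring, Col4a1 and Col4a2 passed as lower. Smooth muscle markers gave no call, with Acta2 at -0.14 ± 0.45 and Mylk at -0.04 ± 0.45. Of 6 endothelial markers 1 passed, beside 25.1% of all genes. It was Pecam1, which white blood cells carry as well (1.12 ± 0.24), while Cdh5 did not pass (0.26 ± 0.40).

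Among matrix proteases and their inhibitors 6 of 14 were lower in CD34- cells and 2 higher, beside 8.59% and 16.5% of all genes. The higher ones were Mmp8 and Mmp9. Mmp12, the macrophage elastase, had log2 values of 7.87, 7.56 and 8.80 in CD34- cells, against 8.67, 9.47 and 10.94 in CD34+ cells (-1.62 ± 0.24, adjusted p = 0.000168). Its groups overlapped, as CD34- sample 3 lay above CD34+ sample 1, but each pair was lower. Timp2, an inhibitor of these proteases, had 7.87, 8.11 and 7.78 in CD34- cells, against 8.82, 9.26 and 9.58 in CD34+ cells (-1.30 ± 0.21, adjusted p = 0.000332). Mmp3, the fibroblast stromelysin, had 4.47, 4.26 and 3.87 in CD34- cells, against 5.65, 9.13 and 5.29 in CD34+ cells (-2.49 ± 0.60, adjusted p = 0.00604). Without pair 2 the difference of Mmp3 was -1.30 and did not pass (adjusted p = 0.166).

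**Figure D3:**
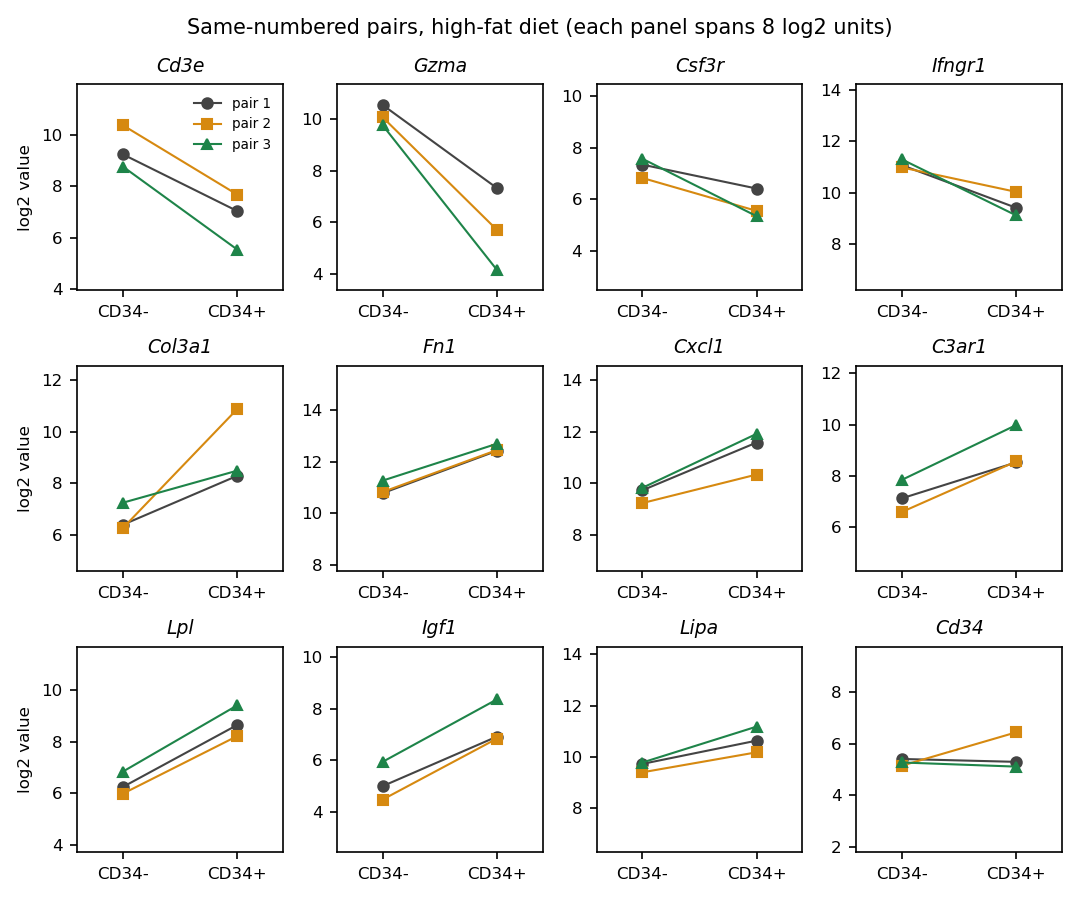
Log2 values (y axis, each panel spanning the same range) of 12 genes in the 3 same-numbered pairs of CD34- and CD34+ samples (x axis), with 1 line per pair. Fn1 and Lpl lines run in parallel, Col3a1 rises steeply to 10.88 in CD34+ sample 2, and Cd34 is raised only in that sample, at 6.44.

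Macrophage genes were unevenly lower in CD34- cells, at 3 of 5 markers, beside 8.59% of all genes, with a median of -0.70. Cd68, a lysosomal protein of macrophages, had log2 values of 10.95, 10.47 and 10.65 in CD34- cells, against 11.60, 10.89 and 11.69 in CD34+ cells (-0.70 ± 0.20, adjusted p = 0.0158). Its groups overlapped, but each pair was lower in CD34- cells. Cd14, the coreceptor for lipopolysaccharide, differed by -0.87 ± 0.23, and Cd163, the haemoglobin scavenger receptor, by -1.03 ± 0.35. Without pair 2 Cd14 (-0.64, adjusted p = 0.0645) and Cd163 (-1.04, adjusted p = 0.14) did not pass. Csf1r, the receptor for macrophage colony-stimulating factor, was at 11.56, 11.05 and 11.21 in CD34- cells and 11.60, 10.95 and 11.18 in CD34+ cells (0.03 ± 0.19). Its values were close in each pair. The sum of the 6 panel markers ran from 5301 to 8032 in CD34- samples and 7619 to 12120 in CD34+ samples, and was lower in CD34- cells in 3 of 3 pairs. Its part in other results was not tested. The markers called numbered 1 under quantile normalization or without the mean-variance trend and 0 without the block. Cd68 (-0.73, adjusted p = 0.0521) and Cd163 (-1.22, adjusted p = 0.0586) did not pass without pair 1, nor did Cd68 (-0.53, adjusted p = 0.127) and Cd163 (-0.82, adjusted p = 0.285) without pair 3.

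Genes for digesting and handling cell debris and lipid were lower. Of 6 lysosome genes 5 were lower, beside 8.59% of all genes, with a median of -0.73, and 5 of 6 also passed after centring. The 5 include Cd68, already counted among the macrophage markers. Fewer were lower in other settings, at 3 with the block as a random effect, 2 under quantile normalization, and 1 without the block, without the mean-variance trend or without pair 3. Lipa, the acid lipase of the lysosome, had log2 values of 9.73, 9.41 and 9.79 in CD34- cells, against 10.64, 10.18 and 11.18 in CD34+ cells (-1.03 ± 0.18, adjusted p = 0.00046). The cathepsins Ctsb (-0.67 ± 0.18), Ctsd (-0.75 ± 0.21) and Ctsl (-0.81 ± 0.27) were lower, and the cholesterol carrier Npc1 did not pass (-0.15 ± 0.22). Axl, a receptor for dying cells, had 7.62, 7.67 and 8.01 in CD34- cells, against 9.11, 9.04 and 9.59 in CD34+ cells (-1.48 ± 0.23, adjusted p = 0.000258). Pltp, a phospholipid transfer protein, had 8.80, 9.55 and 9.46 in CD34- cells, against 9.92, 11.39 and 11.41 in CD34+ cells (-1.64 ± 0.24, adjusted p = 0.000152). For both genes the groups did not overlap. Ctsl (-0.75, adjusted p = 0.117) did not pass without pair 2, nor did Ctsb (-0.40, adjusted p = 0.182), Ctsd (-0.42, adjusted p = 0.201) and Ctsl (-0.52, adjusted p = 0.322) without pair 3.

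In the fatty acid list 4 of 13 genes were lower in CD34- cells and 0 higher, beside 8.59% and 16.5% of all genes. The list's median was 0.11. The 4 were the uptake and lipase genes Lpl, Fabp5, Cd36 and Lipa, and Lipa is also counted among the lysosome genes. Lpl, which splits fat from lipoproteins, had log2 values of 6.25, 5.99 and 6.84 in CD34- cells, against 8.65, 8.22 and 9.42 in CD34+ cells (-2.40 ± 0.36, adjusted p = 0.000152). The 3 pairs gave similar gaps, and the groups did not overlap. Fabp5, a fatty acid carrier, differed by -1.23 ± 0.19, and Cd36, a scavenger receptor for fatty acids, by -1.18 ± 0.29. The oxidation genes Cpt1a (0.28 ± 0.21) and Hadha (0.10 ± 0.19) did not pass. Fat cell markers other than Lpl gave no call, with Adipoq at 0.34 ± 0.50 and Fabp4 at -0.14 ± 0.35. Cd36 (-0.86, adjusted p = 0.0757) did not pass without pair 3.

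The desaturases that make monounsaturated fat went the other way. Scd1 had log2 values of 8.0, 9.76 and 7.33 in CD34- cells, against 6.92, 7.52 and 6.20 in CD34+ cells (1.49 ± 0.25, adjusted p = 0.000369). Its groups overlapped, but each pair was higher in CD34- cells. Scd2 had 8.76, 9.16 and 8.27 in CD34- cells, against 8.01, 8.16 and 6.72 in CD34+ cells (1.10 ± 0.21, adjusted p = 0.00108). These were 2 of 9 lipogenesis and sterol genes that were higher, beside 16.5% higher among all genes. In that list 0 were lower, and the median was 0.67. The synthase gene Fasn (0.57 ± 0.27) and its regulator Srebf1 (0.80 ± 0.28, adjusted p = 0.0515) did not pass. Respiratory chain genes gave 0 of 9 calls, beside 25.1% of all genes. Their median was -0.08, with a range from -0.30 for Ndufc1 to 0.22 for Ndufs3. After centring, Ndufc1 and Cox6b1 passed as lower.

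A growth factor and a complement receptor were also lower in CD34- cells. Igf1, insulin-like growth factor, had log2 values of 4.99, 4.47 and 5.93 in CD34- cells, against 6.91, 6.84 and 8.36 in CD34+ cells (-2.24 ± 0.41, adjusted p = 0.000865). The groups did not overlap. Its receptor gene Igf1r did not pass (0.93 ± 0.35, adjusted p = 0.0681), nor did Vegfa (0.41 ± 0.25). C3ar1, the receptor for the complement fragment C3a, had 7.13, 6.60 and 7.85 in CD34- cells, against 8.53, 8.57 and 9.98 in CD34+ cells (-1.83 ± 0.24, adjusted p = 4.07e-05). Of 4 complement genes C3ar1 and the inhibitor Serping1 (-1.77 ± 0.47) were lower, beside 8.59% lower among all genes. Serping1 did not pass without pair 2 (-0.90, adjusted p = 0.246). Hmox1, the haem oxygenase, was the 1 of 12 hypoxia and oxidative stress genes called (-0.79 ± 0.20), beside 25.1% called among all genes. Hmox1 (-0.75, adjusted p = 0.0574) did not pass without pair 1, nor did Hmox1 (-0.75, adjusted p = 0.0609) without pair 3.

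Of 10 tested chemokine ligand genes 5 were lower in CD34- cells, with a median of -0.75, and Xcl1 was the 1 higher. Among all genes 8.59% were lower and 16.5% higher. The 5 lower ligand genes were Cxcl1 and Cxcl2, which attract neutrophils, Ccl2, Cxcl16 and Cxcl10. Without the block or without the mean-variance trend 1 ligand gene was lower. Cxcl1 had log2 values of 9.72, 9.23 and 9.82 in CD34- cells, against 11.58, 10.33 and 11.92 in CD34+ cells (-1.69 ± 0.20, adjusted p = 2.65e-05). Cxcl2 had 8.59, 7.56 and 8.11 in CD34- cells, against 10.45, 8.40 and 9.73 in CD34+ cells (-1.44 ± 0.35, adjusted p = 0.00604). The groups of Cxcl2 overlapped, but each pair was lower in CD34- cells. Both Cxcl1 and Cxcl2, whose promoters hold the NF-kB letters shown above, had their smallest gap in pair 2. Ccl2, the chief monocyte chemokine, had 9.74, 8.79 and 9.36 in CD34- cells, against 11.09, 10.10 and 12.18 in CD34+ cells (-1.83 ± 0.54, adjusted p = 0.0218). Cxcl16, the ligand of Cxcr6, differed by -0.77 ± 0.20. Ccl4 did not pass (-0.62 ± 0.30), at 10.85, 9.60 and 10.28 in CD34- cells and 11.46, 9.11 and 12.02 in CD34+ cells. Cxcl2 (-1.23, adjusted p = 0.0513) did not pass without pair 1, nor did Cxcl16 (-0.54, adjusted p = 0.124) without pair 2, nor did Ccl2 (-1.33, adjusted p = 0.132) without pair 3.

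Of 8 inflammatory cytokine genes 2 were lower, beside 8.59% lower among all genes. Il10, an anti-inflammatory cytokine, had log2 values of 7.71, 6.86 and 7.51 in CD34- cells, against 9.17, 7.81 and 9.99 in CD34+ cells (-1.63 ± 0.34, adjusted p = 0.00235), and Il6 differed by -0.70 ± 0.21. Il1b, a main fever cytokine, was at 13.69, 12.49 and 13.52 in CD34- cells and 14.22, 12.65 and 13.94 in CD34+ cells and did not pass (-0.37 ± 0.15, adjusted p = 0.0892). Tnf (-0.37 ± 0.18) and Ptgs2 (0.06 ± 0.19) did not pass, and Il17a did not either (1.95 ± 0.73, adjusted p = 0.0643). After centring, Il1b and Tnf passed as lower. Receptors and signal genes of the Toll-like and NF-kB pathway were nearly level, with a median of 0.14. In that list 0 of 17 were higher and 2 lower, beside 16.5% and 8.59% of all genes. The 2 were Cd14 and Relb (-0.52 ± 0.18), while Myd88 (-0.03 ± 0.24), Nfkb1 (0.10 ± 0.18) and Rela (0.31 ± 0.19) did not pass. Relb (-0.35, adjusted p = 0.283) and Il6 (-0.71, adjusted p = 0.0849) did not pass without pair 1, nor did Relb (-0.62, adjusted p = 0.0595) and Il6 (-0.73, adjusted p = 0.0651) without pair 2, nor did Relb (-0.58, adjusted p = 0.0788) and Il6 (-0.65, adjusted p = 0.116) without pair 3.

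Antigen presentation genes of class II differed by small amounts. H2-Aa had log2 values of 14.36, 14.35 and 14.77 in CD34- cells, against 14.67, 15.20 and 15.21 in CD34+ cells (-0.53 ± 0.17, adjusted p = 0.0319). Its groups overlapped, but each pair was lower in CD34- cells. H2-Eb1 had 15.22, 14.86 and 14.98 in CD34- cells, against 15.99, 15.34 and 15.40 in CD34+ cells (-0.56 ± 0.18, adjusted p = 0.0362). H2-DMb2, a peptide loading chain, was the 1 higher gene of 8 (0.55 ± 0.18), beside 16.5% higher among all genes. The class II regulator Ciita did not pass (0.80 ± 0.32). H2-DMb2 did not pass after centring. No gene of the list passed with the block as a random effect, with high-fat samples only or under quantile normalization. Nor did any gene of it pass without the block or without the mean-variance trend. Class I genes gave 0 of 5 calls, beside 25.1% of all genes, with H2-K1 at 0.65 ± 0.32. The dendritic cell list gave Ccr7 as its only call of 4, beside 25.1% called among all genes. H2-DMb2 (0.54, adjusted p = 0.107) and H2-Eb1 (-0.45, adjusted p = 0.177) did not pass without pair 1, nor did H2-DMb2 (0.43, adjusted p = 0.247) and H2-Aa (-0.37, adjusted p = 0.189) without pair 2, nor did H2-Aa (-0.58, adjusted p = 0.0864) and H2-Eb1 (-0.62, adjusted p = 0.0813) without pair 3.

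Of 10 adhesion genes 2 were higher and 2 lower, beside 16.5% and 8.59% of all genes, and 1 was higher with the block as a random effect. Itgb3, the beta chain of the vitronectin receptor, had log2 values of 5.34, 6.44 and 5.27 in CD34- cells, against 2.81, 4.67 and 3.48 in CD34+ cells (2.03 ± 0.43, adjusted p = 0.00269). Its CD34+ values rest on low counts. Vcam1, an adhesion ligand for white cells, had 6.35, 6.67 and 6.98 in CD34- cells, against 7.71, 7.68 and 8.41 in CD34+ cells (-1.27 ± 0.27, adjusted p = 0.00281). Icam1 differed by -0.67 ± 0.16 and Itga4, a chain of the receptor of Vcam1, by 0.55 ± 0.18. Itga4 did not pass without pair 2 (0.41, adjusted p = 0.272) or after centring. Genes of progenitors and the cell cycle gave 0 of 6 calls, beside 25.1% of all genes, with a median of 0.03. Mki67, a marker of dividing cells, was at 8.84, 8.99 and 9.14 in CD34- cells and 9.04, 8.53 and 8.54 in CD34+ cells (0.28 ± 0.27). Itga4 (0.51, adjusted p = 0.132) did not pass without pair 3.

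**Figure D4:**
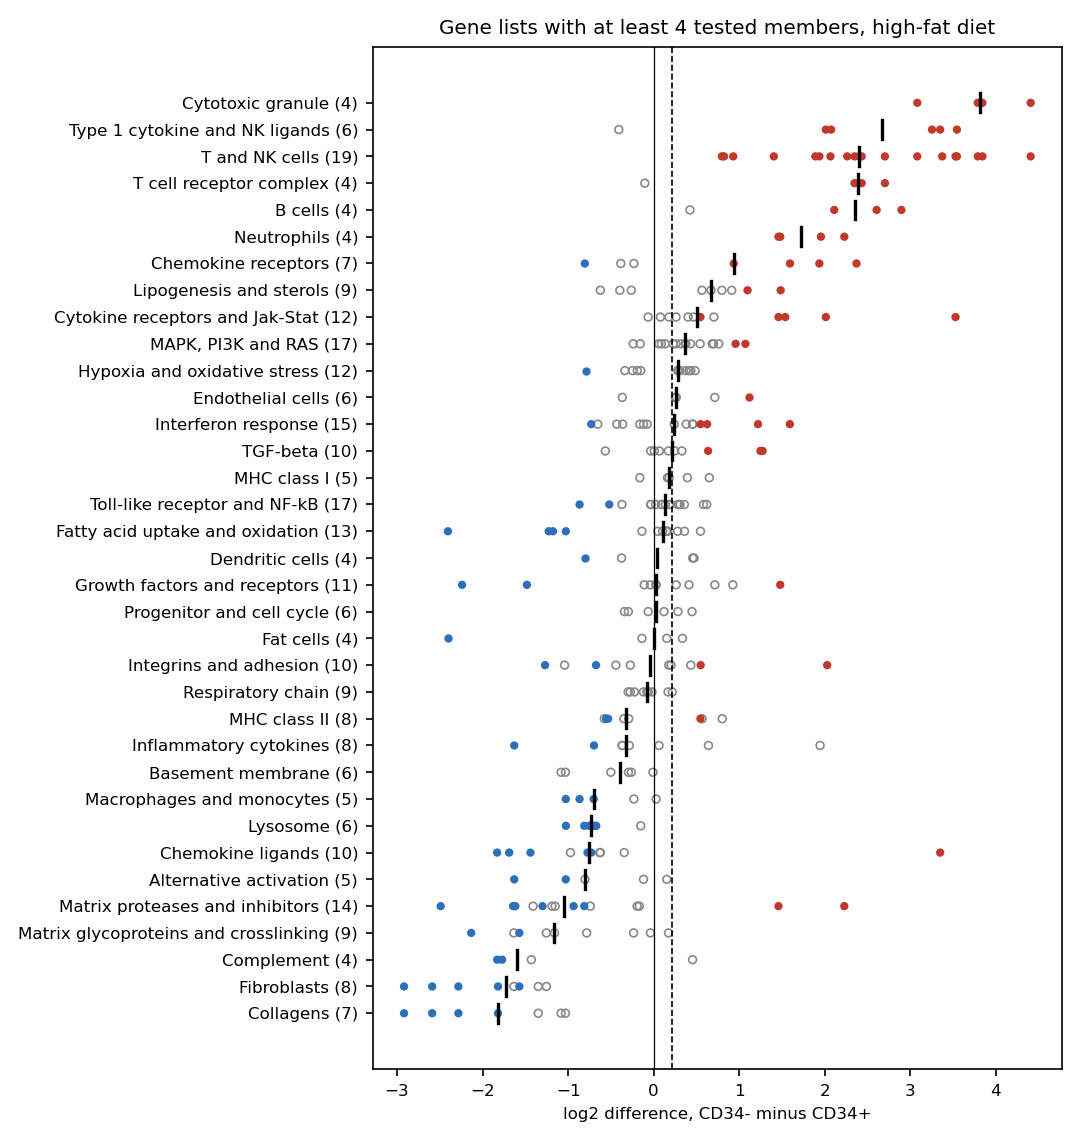
Log2 difference, CD34- minus CD34+ (x axis), of each tested member of the lists with at least 4 tested members (rows, number in brackets), filled where it passed, with a bar at the list's median. Medians run from 3.82 for granule genes to -1.82 for collagens, and the dashed line is the median of all genes, 0.215.

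The low-fat samples were used to ask whether the gap between populations depended on diet. Low-fat CD34- sample 3 had 78316 counts, the fewest of the 12 samples, with 55 genes at 1 count. It enters the comparison between diets and every difference on the low-fat diet. On that diet 149 genes were called as well, 47 higher (7.91%) and 102 lower (17.2%), and the median difference of all genes was -0.14. Of the genes called on the high-fat diet, 45 of the 98 higher and 42 of the 51 lower ones were called in the same direction on the low-fat diet, and 0 in the opposite one. Gzma differed by 4.41 ± 0.44 on the high-fat and 5.95 ± 0.44 on the low-fat diet, and Fn1 by -1.57 ± 0.20 on the high-fat and -2.17 ± 0.20 on the low-fat diet. A difference between diets was called for 9 genes (1.52%), all with a more positive value on the high-fat diet.

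Il21r was the clearest, with a population difference of 1.54 ± 0.25 on the high-fat and -0.65 ± 0.25 on the low-fat diet, which differed by 2.19 ± 0.35 (adjusted p = 0.0102). Nrp2, a receptor for semaphorins and lymphatic growth factors, was at -0.74 ± 0.18 on the high-fat and -2.15 ± 0.18 on the low-fat diet (1.41 ± 0.26, adjusted p = 0.0169). Cd3d (1.49), Cd3e (1.64) and Cd3g (1.37) followed, all higher in CD34- cells on both diets. In log2 values, Il21r was on the high-fat diet at 8.70, 9.26 and 8.23 in CD34- and 7.28, 7.57 and 6.72 in CD34+ cells. Its low-fat values were 8.41, 8.03 and 9.30 in CD34- and 9.62, 9.05 and 9.04 in CD34+ cells. The CD34- samples thus overlapped between diets, while each CD34+ sample was lower on the high-fat diet than each one on the low-fat diet. After centring on the sample median limma called 0 genes in place of 9, with 54 in place of 117 at an unadjusted p under 0.05, and the difference of Il21r was 1.86 (adjusted p = 0.0954). It also called 0 without the block, under quantile normalization, without the mean-variance trend and without low-fat mouse 2, with 52, 53, 97 and 88 genes at an unadjusted p under 0.05. It called 1 without low-fat mouse 1 and 4 without high-fat mouse 1, and 19 and 28 without high-fat mouse 2 and low-fat mouse 3. The difference between diets is therefore given as a result of this scale and these mice. Nrp2 (-0.70, adjusted p = 0.0504) did not pass without pair 2.

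**Figure D5:**
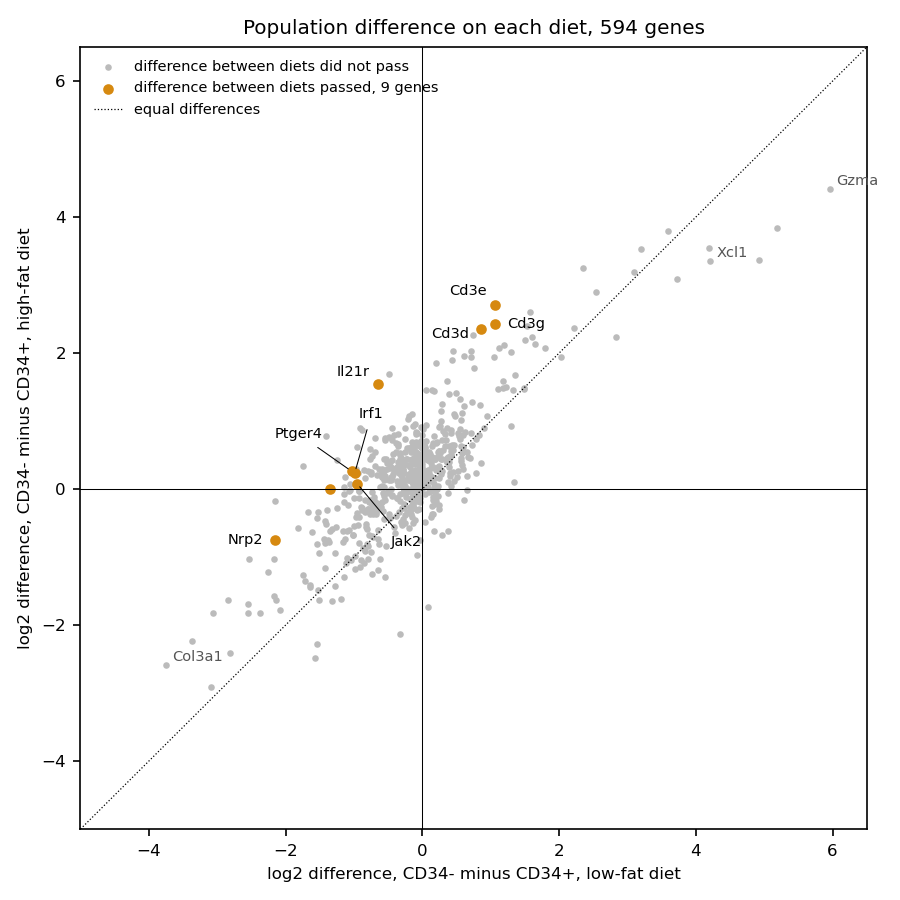
Log2 difference, CD34- minus CD34+, on the high-fat diet (y axis) against that on the low-fat diet (x axis) for 594 genes, with the 9 genes whose diets differed coloured and the line of equal differences dotted. Il21r stands at 1.54 on the high-fat and -0.65 on the low-fat diet, above the line.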

How the data were processed

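RNA of 12 samples was measured on the nCounter Fibrosis V2 panel after low-input amplification, per the labels. The deposited values are log2 values, normalized per sample by the authors with a constant whose origin the sources used here do not state. Whole counts were recovered from the deposited log2 values, which were whole within 0.1 for 98.0% to 99.6% of a sample's values, with totals from 78316 to 780070 counts per sample. Depth limits the low genes, intervals were not computed, and a value at 1 count cannot be told from 0. The authors' deposited table of selected genes gives a cluster number of their own (unit other) beside gene-centred log2 values, which matched the main table within 0.001 for 135 of 135 genes. Symbols were used as deposited: 748 matched the RefSeq gene table, 9 a synonym and 3 none.

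The log2 values were fitted without further scaling in limma 3.58.1 (R 4.3.3), with a mean-variance trend, the mouse (diet and replicate number) as a fixed block and all 12 samples, so that both diets share 1 estimate of spread. Contrasts were CD34- minus CD34+ on each diet and the difference between diets, two-sided, adjusted by Benjamini-Hochberg over 594 genes with a threshold of 0.05. An exact sign test of 3 pairs cannot go below p = 0.25, so none is given. The design text gives 3 mice per diet and the titles number them. Deviations from the group means correlated at 0.351 to 0.430 between same-numbered high-fat samples and at -0.347 to -0.0999 between others. For low-fat samples the ranges were 0.307 to 0.434 and -0.375 to 0.143. The 3 deviations of a group sum to 0, so positive values for the same number bring negative ones between others. The negative values are thus no separate evidence. The numbers were taken as pairs. The sources used here do not state whether a sample is 1 mouse or a pool. The script was tested on simulated data. Within each high-fat group no 2 samples were copies of each other, and other samples were not compared in this way.

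The members, the 38 gene lists and the tests were chosen with earlier results of these data known. Lists share genes, so a call can count in several lists. Named genes were the 15 with the largest difference in each direction among those called, up to 4 called members per list (up to 2 with the smallest p where none was called), 3 genes for the difference between diets, and Cd34 and Ptprc. Other names were chosen after their values were seen, and the results of some genes are not reported here. Promoters are those of the RefSeq table of GRCm38.p6, with a chromosome left out. Python 3.11.15, pandas 2.3.3 and matplotlib 3.10.9 were used for the rest. The alternatives were the block as a random effect or left out, high-fat samples only, centring, quantile normalization, 2 filters, voom (statmod 1.5.0 for the random block), no trend and each mouse left out.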

Additional observations from a re-analysis of the deposited data

Results flagged for a closer look

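The difference between CD34- and CD34+ cells was tested between diets, and 9 genes passed, each with a more positive value on the high-fat diet. For 8 of these the high-fat value minus the low-fat value, in log2 units, was 2.19 for Il21r, 1.64 for Cd3e, 1.49 for Cd3d, 1.41 for Nrp2, 1.37 for Cd3g, 1.30 for Ptger4, 1.23 for Irf1 and 1.03 for Jak2. Irf1, a transcription factor of interferon responses, differed by 0.24 ± 0.19 on the high-fat and -0.99 ± 0.19 on the low-fat diet. Ptger4, a prostaglandin receptor, and the kinase gene Jak2 likewise had low-fat differences below 0 (-1.03 ± 0.21 and -0.95 ± 0.17), beside 0.26 ± 0.21 and 0.080 ± 0.17 on the high-fat diet. The median difference of all genes was 0.215 on the high-fat and -0.14 on the low-fat diet, so the scale of the samples moves with the result, and its part was not tested beyond the centring reported here. Irf1, Jak2 and Ptger4 were chosen after their values were seen.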

How the results depend on the processing

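Leaving out the replicate block for the mouse gave 53 calls, 41 higher and 12 lower, all 53 among the 149, and 0 between diets. Centring gave 61 higher and 80 lower genes and 0 between diets, and quantile normalization gave 70 higher and 52 lower and 0 between diets. Without the mean-variance trend 28 genes were lower and 0 differed between diets, and voom called 15 between diets. Leaving out each mouse in turn gave 97 to 157 calls, 64 to 104 higher and 33 to 53 lower, and 0 to 28 between diets. The calls were fewest without high-fat mouse 3 (97) and those between diets without low-fat mouse 2 (0), against 28 without low-fat mouse 3. Leaving out high-fat mouse 2 and low-fat mouse 3 together, chosen after seeing the data, gave 39 between diets. Among the reported genes taken by the naming rule or called between diets, signs turned only for uncalled values on the high-fat diet: after centring Irf1 (-0.042), Jak2 (-0.20) and Ptger4 (-0.020), without mouse 1 Mylk (0.047), without mouse 3 Ptger4 (-0.0066), and without mouse 2, alone or with low-fat mouse 3, Acta2 (0.094) and Cd34 (0.14). Over all mice left out in turn these ran from -0.15 to 0.047 for Mylk, -0.0066 to 0.51 for Ptger4, -0.33 to 0.094 for Acta2 and -0.59 to 0.14 for Cd34. Centring also turned other uncalled genes that lay between 0 and 0.28, such as Csf1r (-0.25), Ndufs3 (-0.064), Hadha (-0.18) and Ptgs2 (-0.22). Of 1605 values of the genes taken by the rule under these alternatives, 1350 kept direction and side of the threshold, 232 kept direction but lost the call, 14 gained one and 9 turned. The cause was not tested. Low counts limit genes such as Ncr1, Mmp9, Itgb3 and Siglecf.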

Other observations

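Some genes on none of the lists were chosen after their values were seen and are given singly, not as a group. Ogt, the enzyme that adds N-acetylglucosamine to nuclear proteins, had log2 values of 8.53, 8.51 and 9.17 in CD34- cells, against 7.64, 8.04 and 7.82 in CD34+ cells (0.91 ± 0.21, adjusted p = 0.00523 in limma). The groups did not overlap, and the gene passed after centring (adjusted p = 0.0428). The acetyltransferase genes Ep300 (0.89 ± 0.23) and Kat6a (0.90 ± 0.24) and the deacetylase gene Sirt1 (0.89 ± 0.24) were higher as well but did not pass after centring (adjusted p = 0.0565, 0.0783 and 0.0726). Crebbp (0.52 ± 0.26), Ep400 (0.61 ± 0.26), Trrap (0.67 ± 0.26) and Hdac4 (0.55 ± 0.48) did not pass. Ep300 also did not pass without pair 2 (0.82, adjusted p = 0.0538).

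Further genes outside the lists were chosen the same way. Rora, a nuclear receptor of innate lymphoid cells, had log2 values of 8.71, 8.98 and 7.72 in CD34- cells, against 6.75, 6.52 and 5.73 in CD34+ cells (2.14 ± 0.26, adjusted p = 2.67e-05). Ltb, which encodes lymphotoxin beta, had 7.39, 8.60 and 7.02 in CD34- cells, against 5.25, 6.59 and 4.6 in CD34+ cells (2.19 ± 0.27, adjusted p = 2.79e-05). Hcar2, a receptor for niacin and ketone bodies, had 9.48, 8.47 and 9.21 in CD34- cells, against 7.49, 7.55 and 6.78 in CD34+ cells (1.78 ± 0.26, adjusted p = 0.000152). None of these 3 genes had overlapping groups. In the other direction Ptafr, the receptor for platelet-activating factor, had 8.87, 8.88 and 9.72 in CD34- cells, against 10.16, 9.73 and 10.84 in CD34+ cells (-1.08 ± 0.17, adjusted p = 0.000296). Siglecf, a lectin of eosinophils and some macrophages, was near the lower end of the scale at 3.11, 2.14 and 4.36 in CD34- cells, against 4.65, 4.32 and 5.85 in CD34+ cells (-1.73 ± 0.53, adjusted p = 0.0247), and did not pass without pair 2 (-1.51, adjusted p = 0.0929). Its groups overlapped, but each pair was lower in CD34- cells.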
